A study of Mus musculus with 12 samples.

Results

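Npc1l1, Abcg5, Abcg8, Fabp2, Mogat2, Mttp, Apob, Apoa1, Apoa4 and Apoc3 encode proteins that handle dietary fat and sterols in the gut wall, and their transcripts were measured in ileum and colon. The genes were listed by name for their place in fat absorption, by a rule that uses no measured value, and each was found by its Ensembl identifier in the deposited table. They are 10 of 53715 genes listed there. All 10 were among the 16558 genes that passed the filter on low counts, but Apoa4 and Apoc3 passed it through their ileal levels, since only 1 colonic library held at least 10 counts of Apoa4 and 0 held that many of Apoc3.

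The study deleted Slc39a8, which encodes a manganese and zinc importer, in intestinal epithelial cells and sequenced RNA of ileal and colonic mucosa in 12 libraries, 3 per tissue and genotype. All mice were 8-week-old males on the C57BL/6J background. The Slc39a8-IEC KO mice were Slc39a8-fl/fl:Villin-Cre by their labels, so Cre was driven by the Villin promoter, which is active along the intestinal epithelium. The control mice were labelled Slc39a8-fl/fl, whereas the methods describe controls in general as floxed, wild-type or Cre-only animals, so the floxed allele is common to all groups by the labels and the transgene is present only in the KO groups. Both groups ate a standard diet, and nothing in the labels states whether they were fasted or whether an ileal and a colonic library came from 1 mouse.

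Fat absorption in enterocytes runs through a fixed series of steps. Fatty acids and monoacylglycerol enter from the lumen, are joined again to triglyceride at the endoplasmic reticulum, and are loaded by microsomal triglyceride transfer protein (Mttp) onto apolipoprotein B (Apob). The particle then gains other apolipoproteins and leaves as a chylomicron for the lymph. Cholesterol enters through Npc1l1, and the partner transporters Abcg5 and Abcg8 return plant sterols and surplus cholesterol to the lumen. In mammals these steps take place mainly in the small intestine, and the colon absorbs little dietary fat.

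Library totals were between 16749138 and 27903083 expected counts. Levels are given as CPM, counts scaled to a common library size with edgeR's TMM factors. The targeted gene, Slc39a8, was at 5.22 to 8.39 CPM in ileal control, 2.62 to 4.35 CPM in ileal KO, 20.1 to 20.8 CPM in colonic control and 7.35 to 11.5 CPM in colonic KO libraries, so each KO library lay below the controls of its tissue. Several libraries stood apart. The summed level of 5 smooth muscle genes was 31.6 CPM in ileal control replicate 3 and 18.4 CPM in ileal KO replicate 1, whereas the remaining ileal libraries held 1646 to 2373 CPM. Ileal KO replicate 2 held 2632 CPM of the colonocyte gene Car1, of which the rest of the ileum held 3.4 to 144 CPM, and 67.3 CPM of Aqp8 (0 to 0.358 CPM in the rest), while its Car4, at 129 CPM, lay within the 84.6 to 436 CPM of the rest. Colonic KO replicate 3 held 26.8 CPM of Fabp6, the ileal bile acid binding protein, beside 5.76 to 6.55 CPM in the rest of the colon, but the least of the ileal transporter gene Slc10a2 (547 against 783 to 916 CPM), and its sum over 3 ileal enterocyte genes was the lowest of the colon (684 against 874 to 1085 CPM). The summed level of 5 epithelial genes was 15578 to 20273 CPM in ileum and 7794 to 9024 CPM in colon, and the colonic control mean was 49.8% of the ileal one. Alb, the defining hepatocyte gene and a sign of liver RNA that would carry the same apolipoproteins, was at 0 to 0.179 CPM in every library. The other hepatocyte genes of that list were low but higher in ileum, with Ttr at 1.67 to 5.01 CPM in ileum and 0.0941 to 1.04 CPM in colon, and Apoh at 0.711 to 1.31 and 0.144 to 0.358 CPM. The sum of the 3 genes in colonic control libraries was 14.2% of the ileal mean, and its part in the tissue differences was not tested.

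The sequence in front of the start sites is shown for Abcg5 and Abcg8 and for Apob, and no link between its motifs and transcript levels was tested. By the RefSeq start sites used here, Abcg5 and Abcg8 lie head to head on chromosome 17, 110 bases apart, with 1 short stretch between them. Abcg8 had 2 RefSeq windows, and the stretch uses the one with the later start. In the GENCODE M21 gene models the genes overlap instead. There Abcg5 spans 84658234 to 84683011 (minus strand) and Abcg8 84676302 to 84700333 (plus strand). Of the 10 genes, 8 had a RefSeq promoter window on GRCm38.p6 (250 bases before to 50 after the start). In the stretches below, capitals mark the matches to GATAAG, the letters bound by GATA factors, and to TATAAA, on either strand.
Abcg5/Abcg8, chr17:84683012-84683120, plus strand: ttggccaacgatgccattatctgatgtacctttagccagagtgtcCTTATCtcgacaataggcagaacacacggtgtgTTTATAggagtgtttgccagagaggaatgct
Apob, chr12:7977427-7977647, plus strand: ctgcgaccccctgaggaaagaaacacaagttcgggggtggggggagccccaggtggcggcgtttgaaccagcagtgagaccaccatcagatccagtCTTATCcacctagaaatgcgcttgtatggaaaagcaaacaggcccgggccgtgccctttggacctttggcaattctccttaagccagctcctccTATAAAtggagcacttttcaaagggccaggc

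GATAAG was found in the windows of 4 of the 8 members (Abcg5 and Abcg8, which share the match shown, Apob and Apoa1), and 7.45% of 32817 RefSeq windows hold it. TATAAA was in 3 member windows and in 13.6% of all windows, and CCAAT in 4 and in 37.4%. The nuclear receptor letters AGGTCA were in the Npc1l1 window alone among the members and in 16.3% of all windows. A pair of AGGTCA copies 1 base apart, with up to 2 mismatches, was in 0 member windows and in 3.86% of all, and TTTATG, the letters of Cdx factors, in 0 and in 11.9%. All were searched on both strands, and overlaps between motifs were allowed. A match describes letters only, and binding was not measured.

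The first question was how the levels of the members differ between ileum and colon, the only segments sequenced. Each of the 10 genes was lower in colon than in ileum. In control mice the colonic mean was between 0.0343% of the ileal mean, for Apoa1, and 14.8%, for Fabp2. In edgeR's quasi-likelihood test all 10 passed a Benjamini-Hochberg adjusted p of 0.1 as lower in colon, where 19.6% of the 16558 genes tested did so, and 0 were higher in colon, where 16.2% were. In Slc39a8-IEC KO mice again all 10 were lower (20.0% of all genes were) and 0 higher (17.1% were). The libraries compared there are other ones. Both comparisons come from the same fit, with a shared filter, scaling and estimate of spread, so the counts are not independent. Apoa4 and Apoc3 passed the filter only through their ileal levels, so the filter fixed their direction and they lend no weight to either count. The median log2 fold change of the members was -6.13 in control and -6.26 in KO mice, beside 0.02 and 0.01 for all genes. The balance of calls over all genes depended on the scaling, with 3251 lower and 2689 higher in control mice here, 2741 and 3373 with upper-quartile factors, and 2102 and 4156 with library size as the only scaling, while all 10 members were lower under each. In KO mice the numbers were 3312 and 2837, 2634 and 3678, and 1908 and 4637. The members were chosen as genes of small intestinal fat absorption, so the direction of this difference is what their choice would give, and the sizes are the description. Fewer enterocytes and less transcript per enterocyte cannot be told apart in such bulk RNA, and the part of the lower epithelial marker level in colon was not tested.

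**Figure D1:**
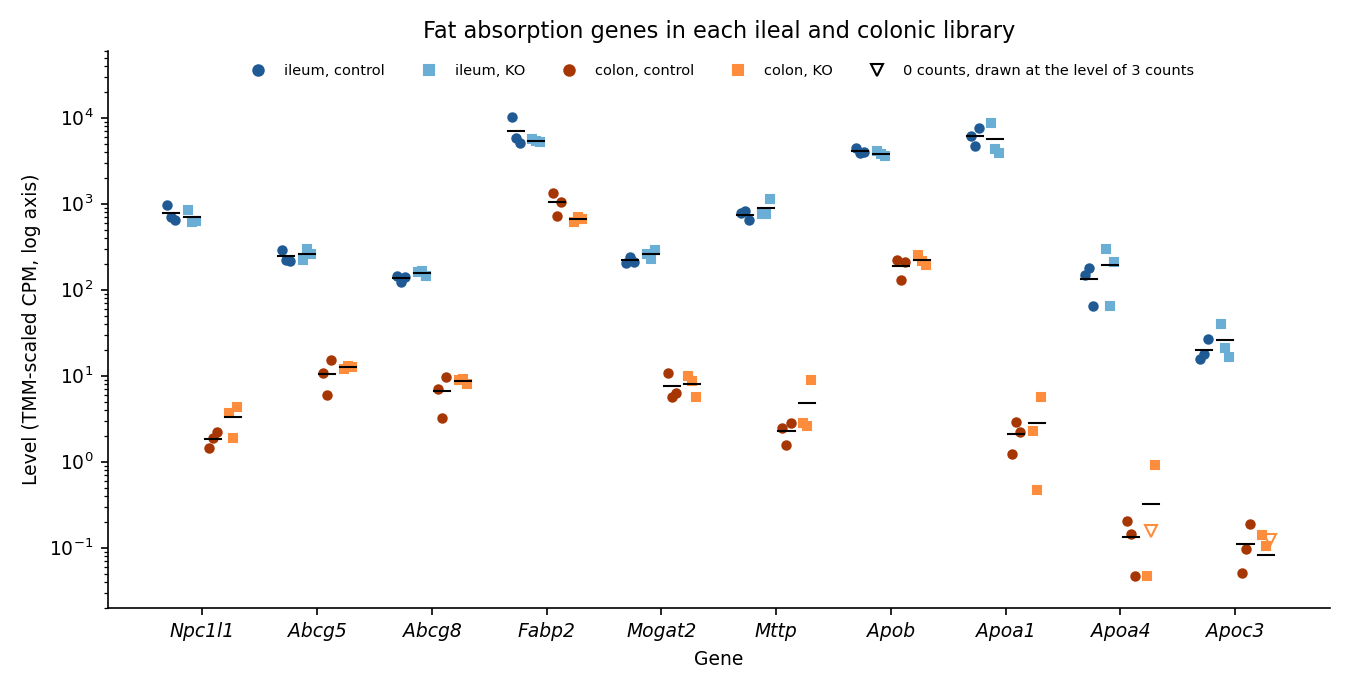
Level of each gene (TMM-scaled CPM, log axis) in every library, by tissue and genotype, with a black line at the mean of 3 libraries; open triangles mark libraries with 0 counts, drawn at the CPM that 3 counts would give. For all 10 genes every ileal library lies above every colonic library, with the narrowest gap for Fabp2 and the widest for Apoa1.

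Among the cholesterol transporters, the importer Npc1l1 (chr11:6211013-6230143 in GRCm38, minus strand) was far higher in ileum than in colon. It was at 973, 699 and 644 CPM in the 3 ileal control libraries and at 849, 618 and 633 CPM in the KO libraries. In colon it was at 1.43, 1.87 and 2.21 CPM in control and at 3.67, 1.86 and 4.32 CPM in KO libraries. The ileal values of both genotypes overlapped, and in colon the lowest KO library fell among the controls. In control mice the log2 fold change between colon and ileum was -8.71 ± 0.38 (SE; edgeR adjusted p = 1.2e-07), and the colonic mean was 0.238% of the ileal mean.

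The exporter pair fell by less, with Abcg5 in colon at 4.33% and Abcg8 at 4.87% of the ileal control mean. Abcg5 was at 293, 222 and 217 CPM in ileal control and 220, 298 and 262 CPM in ileal KO libraries. It was at 10.7, 5.90 and 15.1 CPM in colonic control and 11.9, 12.8 and 12.7 CPM in colonic KO libraries. Colonic control replicate 2 was the lowest and replicate 3 the highest of the colonic libraries, with the KO libraries close together between them. Its partner Abcg8 was at 143, 124 and 142 CPM in ileal control and 160, 167 and 145 CPM in ileal KO libraries. In colon Abcg8 was at 7.01, 3.21 and 9.70 CPM in control and 8.81, 9.22 and 7.97 CPM in KO libraries, with the same control libraries at the bottom and the top as for Abcg5.

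The pair, whose RefSeq start sites lie on either side of the 109 bases printed above, had log2 fold changes with overlapping intervals. That of Abcg5 in control mice was -4.53 ± 0.30 (SE; edgeR adjusted p = 1.1e-06), and that of Abcg8 -4.36 ± 0.31 (SE; adjusted p = 1.7e-06). The ratio of Abcg5 to Abcg8 CPM ran from 1.37 to 2.05 across ileal libraries and from 1.35 to 1.84 across colonic ones, so the ratio overlapped between tissues while both levels fell. In the GENCODE M21 models, where the genes overlap, their exons share 82 bases on opposite strands. No source used here states whether reads were counted by strand, so reads of that stretch cannot be told apart.

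Fabp2 (chr3:122895072-122899506, plus strand), the intestinal fatty acid binding protein that ferries fatty acids through the cytosol, had the smallest difference between tissues of the 10. It was at 10146, 5855 and 5114 CPM in ileal control and at 5645, 5379 and 5171 CPM in ileal KO libraries. In colon it was at 1348, 716 and 1057 CPM in control and at 616, 708 and 665 CPM in KO libraries. Ileal control replicate 1 stood above the other ileal libraries, which lay close together, and each colonic KO library lay below each colonic control library. Between colon and ileum its log2 fold change was -2.76 ± 0.30 (SE; edgeR adjusted p = 4.1e-05) in control and -3.03 ± 0.30 (SE; adjusted p = 2.3e-05) in KO mice. The colonic mean was 14.8% of the ileal mean in control and 12.3% in KO mice, beside 49.8% and 44.2% for the 5 epithelial markers.

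Mogat2 (chr7:99219084-99238619, minus strand) encodes the acyltransferase that turns absorbed monoacylglycerol back into diacylglycerol. It was at 204, 243 and 213 CPM in ileal control and at 259, 227 and 291 CPM in ileal KO libraries. In colon it was at 10.6, 5.66 and 6.26 CPM in control and 9.89, 8.60 and 5.60 CPM in KO libraries. The genotypes overlapped in both tissues, and the log2 fold change between colon and ileum was -4.87 ± 0.29 (SE; edgeR adjusted p = 4.9e-07) in control and -5.01 ± 0.29 (SE; adjusted p = 4.6e-07) in KO mice.

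The partners of chylomicron assembly differed in how far they fell. Mttp (chr3:138089854-138144968, minus strand), whose product loads lipid onto the growing particle, was at 771, 831 and 643 CPM in ileal control and 755, 765 and 1119 CPM in ileal KO libraries. In colon it was at 2.46, 1.58 and 2.82 CPM in control and at 2.83, 2.59 and 8.92 CPM in KO libraries. Ileal and colonic KO replicate 3 were the highest of their tissues. Mttp had a log2 fold change between colon and ileum of -8.35 ± 0.54 (SE; edgeR adjusted p = 9.5e-07) in control mice and -7.51 ± 0.52 (SE; adjusted p = 1.4e-06) in KO mice. Without colonic KO replicate 3, the colonic library with the most Fabp6, the KO value was -8.34. The counts behind the colonic values were 33 to 215 per library. Of the exon bases of Mttp, 7.36% overlap exons of the gene Trmt10a on the other strand, whose reads cannot be told apart without strand. The part of such reads in the colonic level was not tested.

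Apob (chr12:7977648-8016835, plus strand), the structural protein of the chylomicron, had the narrowest ileal range of the 10 genes. It was at 4384, 3922 and 4005 CPM in ileal control and at 4111, 3736 and 3557 CPM in ileal KO libraries. In colon it was at 222, 131 and 211 CPM in control and 250.6, 218 and 195 CPM in KO libraries. The ileal values spanned a factor of 1.23, a ratio that 92.0% of 8588 genes with an ileal mean of at least 10 CPM exceeded. Between the tissues the Apob log2 fold change was -4.45 ± 0.23 (SE; edgeR adjusted p = 2.8e-07) in control and -4.10 ± 0.23 (SE; adjusted p = 3.9e-07) in KO mice. The ratio of Mttp to Apob CPM ran from 0.161 to 0.315 across ileal libraries and from 0.0111 to 0.0458 across colonic ones, and these ranges did not overlap. Colonic mucosa thus held Apob transcript at 4.58% of the ileal control mean with Mttp at 0.306% of its own.

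Of the surface apolipoproteins, Apoa1 and Apoa4 had the largest estimated differences of the 10 genes in control mice. The order of Apoc3, Npc1l1 and Mttp was not resolved. In control mice they were at -7.39, -8.71 and -8.35 on the log2 scale, and the Apoc3 interval overlapped the others. In KO mice, at -8.26, -7.72 and -7.51, Apoc3 had the largest of these differences. Apoa1, the main protein of high density lipoprotein and a chylomicron component, was at 6143, 4744 and 7526 CPM in ileal control and at 8787, 4338 and 3896 CPM in ileal KO libraries. In colon it was at 1.23, 2.88 and 2.21 CPM in control and 2.26, 0.466 and 5.64 CPM in KO libraries. In both tissues the genotypes overlapped. Apoa1 had a log2 fold change of -11.50 ± 0.90 (SE; edgeR adjusted p = 4.0e-06) in control mice and -10.97 ± 0.88 (SE; adjusted p = 4.9e-06) in KO mice. Colonic KO replicate 3 again held the most, and without it the KO value was -12.00. The counts behind the colonic values were 9 to 136 per library.

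Apoa4, which is induced by fat and is made mainly by enterocytes, was at 150, 181 and 64.8 CPM in ileal control and at 301, 65.5 and 211 CPM in ileal KO libraries. The rounded counts in colon were 4, 3 and 1 in control and 1, 0 and 22 in KO libraries, and 0 counts allow up to 0.155 CPM in that library. Summed over 3 libraries, the ileal level was 958.5 times the colonic one in control mice (95% exact interval 486 to 2221, counting error only). In KO mice it was 495 times (330 to 782), and 22 of the 23 colonic counts came from KO replicate 3. The edgeR log2 fold changes were -9.92 ± 1.04 (SE; adjusted p = 3.3e-05) in control and -9.09 ± 0.94 (SE; adjusted p = 3.2e-05) in KO mice, and the KO value without that replicate was -12.61, a fit that rests on 1 count. Of the exon bases of Apoa4, 34.9% overlap an annotated transcript on the other strand, whose reads cannot be told apart without strand.

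Apoc3, which slows the lipolysis of triglyceride-rich particles, was the lowest member in ileum per base of transcript. It was at 15.5, 18.1 and 26.4 CPM in ileal control and at 39.8, 21.03 and 16.6 CPM in ileal KO libraries. The rounded counts in colon were 1, 2 and 4 in control and 3, 2 and 0 in KO libraries, where 0 allows up to 0.125 CPM. The summed ileal level was 184 times the colonic one in control (95% exact interval 88.9 to 458) and 317 times in KO mice (136 to 978). The intervals overlap and cover counting error only. The edgeR log2 fold changes were -7.39 ± 0.59 (SE; adjusted p = 4.7e-06) in control and -8.26 ± 0.62 (SE; adjusted p = 2.8e-06) in KO mice. They moved to -7.99 without colonic control replicate 3, to -8.96 without colonic KO replicate 1 and to -7.64 without colonic KO replicate 3.

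Apoa1, Apoc3 and Apoa4 lie within 14880 bases on chromosome 9, with Apoc3 between the others on the opposite strand. Apoa1 spans 46228580 to 46230466, Apoc3 46232933 to 46235636 and Apoa4 46240696 to 46243459 in GRCm38. Apoa5, the next gene of the cluster 25173 bases away, was at 0 to 0.425 CPM in every ileal library and did not pass the filter on low counts, so it shared the neighbourhood but not the ileal level.

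**Figure D2:**
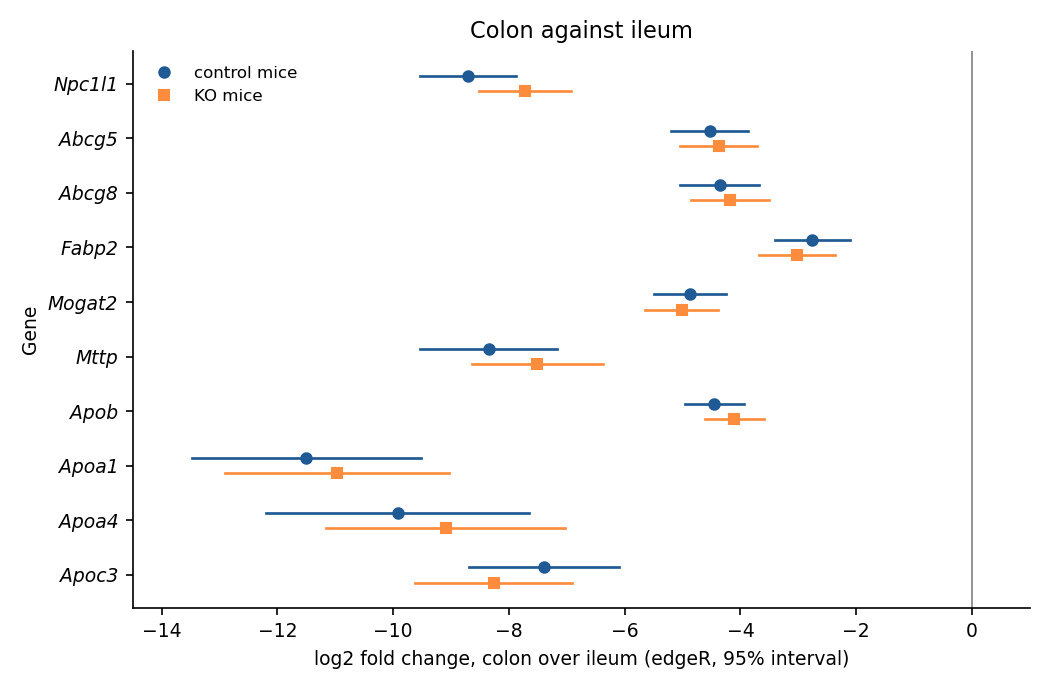
log2 fold change between colon and ileum for each gene with its 95% interval (edgeR), in control mice (circles) and KO mice (squares); negative values are lower in colon. All intervals lie below 0, from Fabp2 (-2.76 in control mice) to Apoa1 (-11.50), and the intervals of the genotypes overlap for each gene.

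To compare the members with each other, expected counts were divided by exon length and scaled to the same total in each library (TPM). In ileal control libraries the order was Fabp2 (14694 ± 4163 TPM, SD, n = 3), Apoa1 (10466 ± 3799), Apob (608 ± 77.5), Npc1l1 (352 ± 49.6), Mogat2 (248 ± 38.4), Mttp (247 ± 15.5), Abcg5 (184 ± 21.9), Apoa4 (144 ± 54.2), Abcg8 (75.5 ± 14.4) and Apoc3 (42.0 ± 18.5). Neighbouring ranges overlapped for Fabp2 with Apoa1, Mogat2 with Mttp, Abcg5 with Apoa4 and Apoa4 with Abcg8, and did not overlap for the other neighbours. In ileal KO libraries the first 6 stood in the same order, from Fabp2 (12547 ± 1786 TPM, SD, n = 3) and Apoa1 (10593 ± 6190) to Mttp (314 ± 59.7), and Apoa4 came before Abcg5 with overlapping ranges. Fabp2 and Apoa1 each exceeded 99.98% of all genes in ileal control libraries. With the longest transcript as the length, Mttp (324 TPM) moved above Npc1l1 (295 TPM) and their ranges overlapped.

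In colonic control libraries Fabp2 remained first at 2588 ± 567 TPM (SD, n = 3) and Apob second at 32.7 ± 7.81 TPM. Mogat2 (9.75 ± 2.17 TPM), Abcg5 (9.56 ± 4.66 TPM), Abcg8 (4.33 ± 2.33 TPM) and Apoa1 (4.30 ± 2.03 TPM) followed, and each range overlapped the next. Npc1l1 (1.03 ± 0.322 TPM) and Mttp (0.900 ± 0.275 TPM) came after a gap, with Apoc3 and Apoa4 at 0.281 and 0.167 TPM. Apoa1 had rank 2 among the members in ileal control libraries and rank 6 in colonic control libraries, and rank 5 there with the longest transcript as the length. The cDNA was primed with oligo-dT, and whether reads of long transcripts such as Apob, with 13934 exon bases, lean to the 3′ end was not tested.

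Within ileum the members differed in how much they varied from library to library. The highest ileal library exceeded the lowest by a factor of 4.64 for Apoa4, and 3.31% of the 8588 ileal genes had a larger factor. The factor was 2.57 for Apoc3, 2.26 for Apoa1, 1.98 for Fabp2 and 1.35 to 1.74 for Npc1l1, Abcg5, Abcg8, Mogat2 and Mttp, where the median of these genes was 1.57. Apoa1 and Apoc3 were highest in ileal control replicate 3 and KO replicate 1, the libraries with few smooth muscle transcripts. Apoa1 was at 7526 and 8787 CPM there, beside 3896 to 6143 CPM in the rest of the ileum, and Apoc3 at 26.4 and 39.8 against 15.5 to 21.03 CPM. Apoa4 did not follow them, since KO replicate 1 had the highest and control replicate 3 the lowest ileal level. Abcg5, at 217 and 220 CPM, and Mttp, at 643 and 755 CPM, were at the bottom of their ileal ranges in the same libraries, with 222 to 298 and 765 to 1119 CPM in the rest. Over all tested genes, the deviations of these libraries from their group means correlated at r = 0.81, so a shared shift was not particular to the members. The share of all genes separated in this way was not counted. The part of the smooth muscle share in these levels was not tested.

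**Figure D3:**
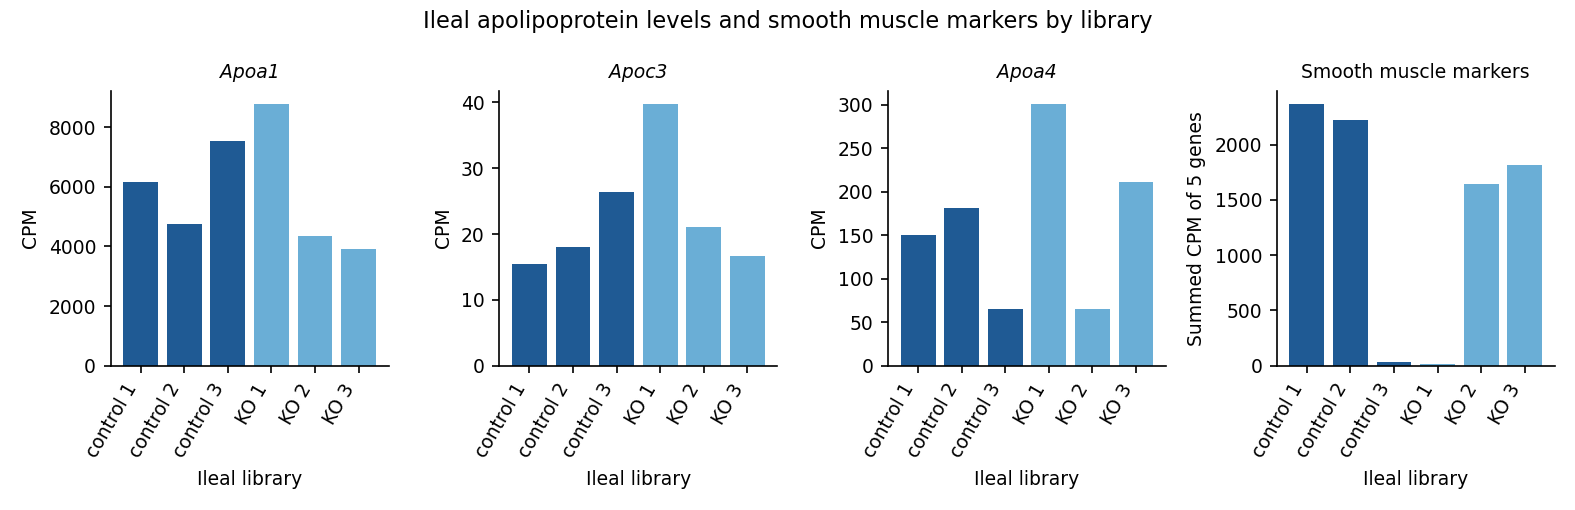
CPM of Apoa1, Apoc3 and Apoa4 and the summed CPM of 5 smooth muscle genes in the 6 ileal libraries (bars from 0; dark, control; light, KO). Control 3 and KO 1 have the fewest smooth muscle transcripts and the most Apoa1 and Apoc3, while Apoa4 is highest in KO 1 and lowest in control 3.

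The second question was whether loss of epithelial Slc39a8 alters these genes. No member passed the test in ileum, in colon, over both tissues or for the difference between tissues, and 0% of the 16558 genes did so in edgeR in each of these comparisons. The smallest adjusted p over both tissues was 0.38 in edgeR. The deleted gene Slc39a8 was thus not called either, though its KO libraries lay below the controls of each tissue and the study reported it as lower. The lack of a call therefore says little about the members. At an unadjusted p under 0.05, edgeR counted 0 members in ileum, 3 in colon, 1 over both tissues and 1 for the difference, beside 252, 385, 641 and 169 of all genes. DESeq2 called 2 genes in ileum, 0 in colon, 4 over both tissues and 1 for the difference, limma-voom 1, 0, 1 and 0, and 0 of these were members. The median log2 fold change of the members over both tissues was 0.21, beside 0.00 for all genes, with 9 values above 0 and 1 below. The signs of Apob, Apoa1, Apoa4 and Apoc3 turned in some alternative fits, and the share of all genes above 0 was not counted. The split is therefore not read as a shared rise.

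Fabp2 was the member with a negative value and the smallest p over both tissues. Its log2 fold change between KO and control was -0.38 ± 0.28 (SE) in ileum, -0.65 ± 0.28 in colon and -0.52 ± 0.19 over both, with an unadjusted p = 0.019 and an adjusted p = 0.998 over both in edgeR. The 95% interval over both tissues was -0.93 to -0.10. The exact two-sided permutation test that exchanged genotypes within tissue gave p = 0.05, where 400 arrangements allow no p below 0.005. In colon the KO libraries lay wholly below the controls, and 12.8% of all genes were separated there in either direction, so 1 of 10 members is close to that share. In ileum Abcg8 was separated in the opposite direction, with KO libraries at 145 to 167 CPM above controls at 124 to 143 CPM, where 3.70% of all genes were separated.

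Besides Fabp2, Npc1l1 and Mttp were the members with a small p before adjustment in colon. Npc1l1 differed there by 0.84 ± 0.31 on the log2 scale (SE; edgeR unadjusted p = 0.020, adjusted p = 1), and by -0.14 ± 0.27 in ileum. The difference between these effects was 0.98 ± 0.41 (SE; unadjusted p = 0.034, adjusted p = 1). Mttp differed in colon by 1.07 ± 0.43 (SE; unadjusted p = 0.031, adjusted p = 1). Both genes were low in colon and highest in KO replicate 3, the colonic library with the most Fabp6. Without that library the colonic values were 0.61 ± 0.33 for Npc1l1, 0.26 ± 0.28 for Mttp and -0.64 ± 0.33 for Fabp2 (SE), each with an unadjusted p above the 0.05 level in edgeR.

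For the remaining members the intervals show what these libraries could have seen. Over both tissues the 95% interval of the log2 fold change was -0.25 to 0.38 for Apob, -0.19 to 0.53 for Mogat2, -0.23 to 0.55 for Abcg5 and -0.12 to 0.69 for Abcg8. It was wider for the surface apolipoproteins, at -0.78 to 1.02 for Apoa1, -0.50 to 1.81 for Apoa4 and -0.50 to 1.01 for Apoc3, so a change of 1 log2 unit was within reach of the interval for these 3 genes. For Apob, Apoa1, Apoa4 and Apoc3 the sign of the estimate turned in some alternative fits. The exact permutation p was between 0.085 and 0.865 for the 9 members other than Fabp2.

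**Figure D4:**
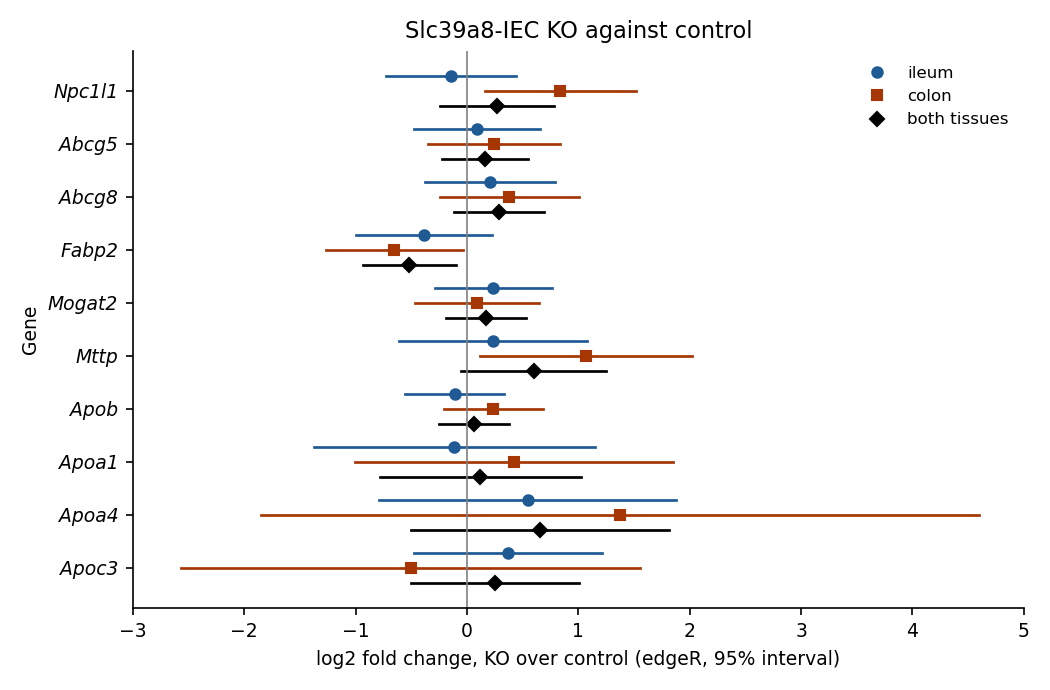
log2 fold change between Slc39a8-IEC KO and control for each gene with its 95% interval (edgeR), in ileum (circles), colon (squares) and over both tissues (diamonds). Most intervals include 0; those of Fabp2 over both tissues and of Fabp2, Npc1l1 and Mttp in colon do not, and none of these passed after adjustment over all genes.

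Other genes of fat absorption were described from 6 lists with 61 genes. Of these, 57 were tested between the tissues of control mice, and 29 were lower in colon, 8 higher and 20 not called, with a median log2 fold change of -0.63. Over all genes tested, 19.6% were lower and 16.2% higher, so the count of genes higher in colon was close to the background, and the shorter lists that follow, of 8 to 12 tested genes, are described and not compared with it. Mogat1, Apoa5 and Apoc1 did not pass the filter on low counts, and Vamp7 was not analysed here. In KO mice 32 were lower and 8 higher, and 35 genes were called in the same direction in both genotypes. No gene of the lists passed the edgeR test between KO and control, and over both tissues 3 had an unadjusted p under 0.05, Apobec1 at -0.43 ± 0.19, Creb3l3 at 0.36 ± 0.16 and Mia3 at 0.16 ± 0.075 on the log2 scale (SE).

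Of the genes of fatty acid uptake and activation, 4 of 8 were lower and 2 higher in colon. Acsl5, an acyl-CoA synthetase that activates fatty acids, had a tissue difference of -4.08 ± 0.20 (SE) on the log2 scale, and Acsl3, another of that family, one of 2.86 ± 0.37. The transporter Slc27a2 was at -2.83 ± 0.40. Fabp1, the liver-type partner of Fabp2, was at -2.79 ± 0.62 but held only 1.94 to 8.41 CPM even in ileum.

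Of triglyceride synthesis genes, 5 of 10 tested were lower and 1 higher in colon. Dgat1, which makes triglyceride from the diacylglycerol that Mogat2 yields, stood at -3.32 ± 0.20 (SE) on the log2 scale. Gpat3 and Agpat2 of the glycerol phosphate route were at -2.53 ± 0.15 and -1.25 ± 0.17. Mgll, which breaks monoacylglycerol down and so acts on the substrate of Mogat2, was higher in colon at 3.26 ± 0.34, with 85.8 to 138 CPM there and 6.56 to 15.2 CPM in ileum.

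Of the lipid droplet genes, 3 of 8 were lower and 2 higher. The droplet coat gene Plin3 was at -2.83 ± 0.26 (SE), the lipase gene Lipe at -2.35 ± 0.19, and Cideb, which promotes droplet fusion and lipoprotein lipidation, at -2.09 ± 0.20 on the log2 scale. Fitm2, needed for droplet formation, was at 1.06 ± 0.29.

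Of genes of cholesterol handling, 4 of 9 were lower and 1 higher. Soat2, which esterifies absorbed cholesterol for chylomicrons, was at -6.16 ± 0.53 (SE) on the log2 scale. Scarb1, a lipoprotein receptor, was higher in colon at 2.18 ± 0.30.

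Chylomicron assembly and transport had 7 of 10 tested genes lower and 1 higher in colon. Tm6sf2, required for lipidation of Apob particles, was at -5.45 ± 0.43 (SE) and the lipase activator Apoc2 at -5.01 ± 0.69. The general secretory genes were much less different, with Mia2, a cargo receptor for large particles, at -1.22 ± 0.14 and P4hb, the partner subunit of Mttp and a folding enzyme of all secretory cells, at -1.01 ± 0.17 on the log2 scale. P4hb was at 406 to 513 CPM in colon, where Mttp was at 1.58 to 8.92 CPM.

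Among regulators, 6 of 12 were lower and 1 higher in colon. The transcription factor genes Maf, Hnf4g and Creb3l3 had log2 fold changes of -3.79 ± 0.29 (SE), -2.82 ± 0.29 and -2.80 ± 0.26. Pparg, the nuclear receptor of fat storage, was higher in colon at 3.73 ± 0.42.

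**Figure D5:**
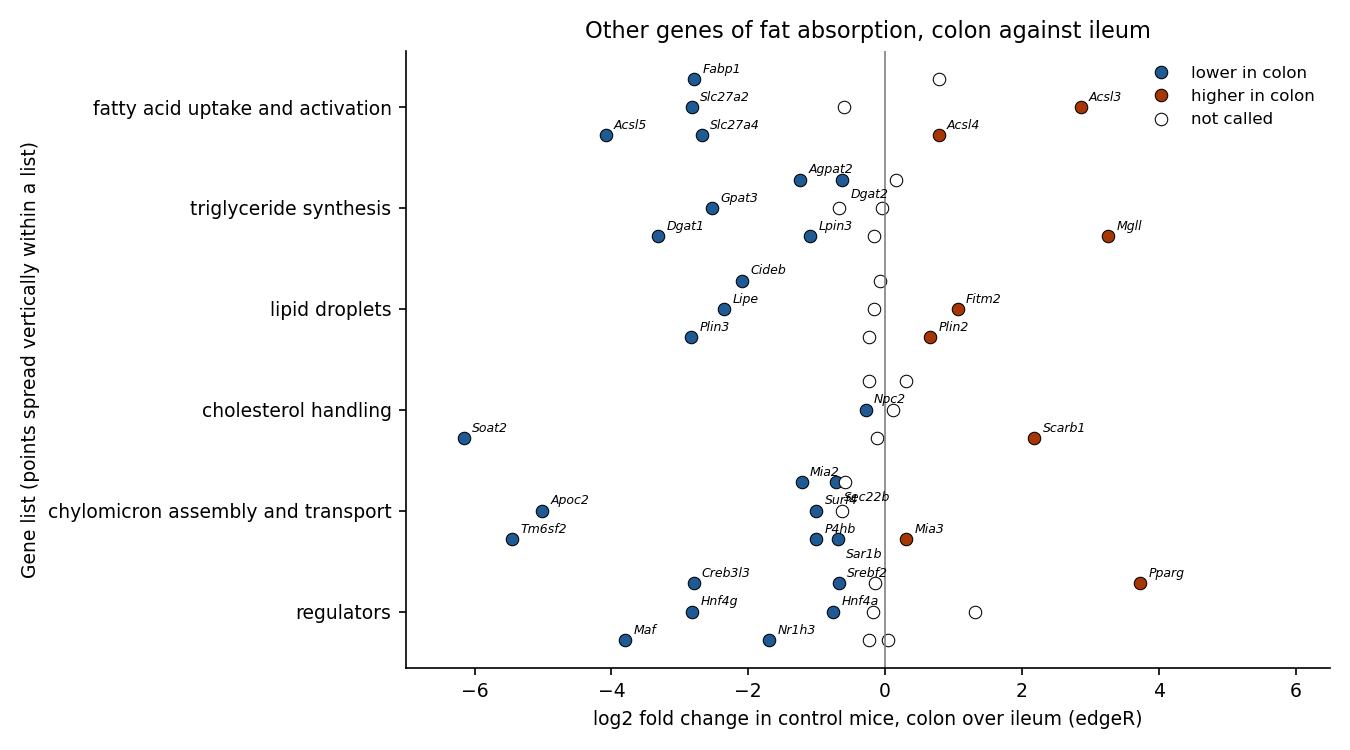
log2 fold change between colon and ileum of control mice for tested genes of 6 lists (edgeR; 2 genes not reported here are left out); blue, called lower in colon; red, called higher; open, not called. Soat2, Tm6sf2 and Apoc2 lie farthest to the left, and Pparg, Mgll and Acsl3 farthest to the right.

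For the members other than Abcg5, the gene outside the set with the most similar level across the 12 libraries was found by Pearson's r of log2 CPM, which is set mainly by the split between ileum and colon, and 403 to 743 genes had an r over 0.95 with a member. Npc1l1 was nearest to the brush border peptidase gene Enpep (r = 0.999), Mttp to Fabp6 (0.998), Apob to Nat8 (0.998), Mogat2 to Lsr (0.997), Apoa1 to Mmp7 (0.996), Apoc3 to the peptidase gene Mme (0.996), Abcg8 to Mb21d2 (0.994), Fabp2 to Serpinb1a (0.994) and Apoa4 to Hspa12a (0.992). Fabp6, like Mttp, was highest in replicate 3 of the KO libraries of both tissues.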

How the data were processed

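The authors aligned reads to mm10 with STAR, per the labels, and deposited 1 table of expected counts, that is, estimated reads of a gene, 93.7% of them whole and none normalized. The study's reporting summary names FeatureCounts for a counts file, and the sources used here do not say which tool gave these estimates or whether strand was used. The libraries were grouped by their labels. Lines for 92 spike-in sequences, with 0 counts, were left out. Expected counts were rounded, filtered with edgeR's filterByExpr and scaled by TMM (edgeR 4.0.16, R 4.3.3). glmQLFit and glmQLFTest on a model of the 4 groups gave the tissue and within-tissue effects, and a model of tissue plus genotype the effect over both tissues. P-values were adjusted over 16558 genes with a threshold of 0.1. Adjusted p-values are edgeR's unless another tool is named. Steps were tested on simulated data.

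TPM used the union of exons in GENCODE M21, matched by Ensembl identifier. Permutation tests used log2(CPM + 0.5). If each mouse gave both tissues, the libraries are not independent. The genotype p-values over both tissues, from edgeR and from permutation, are then too small where the tissues of a mouse vary together. The tests between tissues, other than with the replicate block, would then ignore a pairing. Alternatives were DESeq2 1.42.0, limma-voom (limma 3.58.1), other scalings, filters and thresholds, a replicate block, the 6 libraries of a comparison, and each library left out. Leaving out 2 ileal libraries with few muscle transcripts was chosen after seeing the data. So was leaving out ileal KO replicate 2 and colonic KO replicate 3, each with some markers of the other segment. The members and lists were chosen with earlier results of these data known. Besides the members, the genes named are up to 4 called genes with the largest change per list, the markers, Slc39a8 and the nearest genes of the members. A few named results are not reported here. Apoa5, Mogat1, Apoc1 and Vamp7 were named because they were not tested. Counting intervals are exact binomial at 95%, cover counting error only, and 0 counts were given a limit of 3 counts. Precision follows depth, and colonic Apoa4 and Apoc3, with few counts, are the least precise. Figures were drawn with matplotlib 3.10.9.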

Additional observations from a re-analysis of the deposited data

How the results depend on the processing

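In all 24 alternatives for each genotype's tissue comparison, 10 of 10 members were called lower in colon, and in 0 alternatives was a member called between KO and control. The limit of the filter for Apoa4 and Apoc3 holds here too wherever low counts were filtered. Single colonic libraries moved some called values, as given with the genes. Another fit left out ileal KO replicate 2, with much Car1 and Aqp8, and colonic KO replicate 3, with the most Fabp6 but the least Slc10a2 of the colon. In that fit the tissue differences in KO mice were -13.01 for Apoa4, -12.16 for Apoa1, -8.43 for Mttp and -8.05 for Npc1l1 on the log2 scale. Colonic KO replicate 3 held the most of these genes in colon, so larger differences are what its removal would give. The count of other fat absorption genes called between tissues of control mice was 33 to 43 (37 in the main analysis). Whether the replicate numbers pair the samples was not settled. Correlations of same-numbered libraries ran from -0.69 to 0.40, with 5 of 18 above 0.1, but most of these pairs join different genotypes. Between ileum and colon of the same genotype they were -0.053, 0.16 and -0.080 in control and 0.19, 0.051 and 0.25 in KO mice. With the replicate number as a block, 10 members were called between tissues in each genotype, 0 by genotype, and 35 of the other genes. The sign of the log2 fold change of KO against control over both tissues turned in some fits. For Apob it turned without single libraries (-0.048 to 0.10). For Apoa1 it turned with limma-voom (-0.15), without single libraries (-0.29 to 0.30), and without ileal KO replicate 2 and colonic KO replicate 3 (-0.22). For Apoa4 it turned without the ileal libraries with few muscle transcripts (-0.067), and for Apoc3 without single libraries (-0.15 to 0.49). The cause was not tested. Library size as the only scaling moved the median of all genes between tissues to 0.24. With the longest transcript as the length, the ileal control means of Npc1l1, Mttp and Apob were 295, 324 and 510 TPM.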
